A study of Mus musculus with 8 samples.

Results

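Microtubule genes were followed in 8 mouse RNA sequencing libraries: 37 of the 29713 genes in the deposited tables, taken by symbol from a fixed list of 14 tubulins, 4 stathmins, 7 microtubule-associated proteins, the 2 doublecortin family genes Dcx and Dclk1, 4 collapsin response mediators, the 2 tubulin polymerization promoting proteins Tppp and Tppp3, and 4 kinesins. All 37 symbols were found, and each reached 10 TPM in at least 1 library, 15 of them in all 8. The series profiled cells and brain regions, with 1 library for each of 8 groups. Replicates were therefore lacking in every comparison, and no test was run. The neuron, glia, cerebellum, cortex and hippocampus libraries came from mice of strain C57. A further library was labelled R1 ESC, a stem cell line that the labels trace to inner cell mass and to the cross 129X1 x 129S1. The ICR MEF and OG2 MEF libraries were embryonic fibroblasts of strains ICR and OG2, from embryos of day 13.5. The sources used here do not give the age or sex of the C57 mice or how neurons and glia were obtained.

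Microtubules are hollow polymers of alpha- and beta-tubulin dimers, nucleated from rings that hold gamma-tubulin. Alpha- and beta-tubulin are each made by several genes, the isotypes, whose proteins are near-identical in their core and differ most in the acidic tail at the end of the chain. Stathmins bind free tubulin dimers and promote disassembly, microtubule-associated proteins bind along the lattice, and kinesins walk on it. Neurons are known for dense, long-lived microtubules in axons and dendrites and for isotypes and binding proteins that dividing cells use little.

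The likeness of the isotype genes sets how far they can be told apart by short reads. Tuba1a, Tuba1b and Tuba1c lie close together on chromosome 15 (chr15:98949837-98953703 on the minus strand, chr15:98931425-98934565 on the minus strand and chr15:99029891-99038110 on the plus strand, GRCm38), Tuba4a on chromosome 1 and Tuba8 on chromosome 6. Over the coding sequences of GENCODE M21 (GRCm38, mm10), with positions counted from the coding start without gaps, Tuba1b had the same base as Tuba1a at 98.3% of positions and Tuba1c at 97.2%, against 85.2% for Tuba4a and 78.8% for Tuba8.

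The last 60 coding bases of 6 of the 7 beta-tubulin genes, which encode the tail, are given from the same transcripts, with capitals where Tubb5 has another base or no base at the same coding position. Tubb6 is not shown. Letters behind a difference in length can differ through the shift alone.
Tubb5: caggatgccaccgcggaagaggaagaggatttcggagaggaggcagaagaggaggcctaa
Tubb2a: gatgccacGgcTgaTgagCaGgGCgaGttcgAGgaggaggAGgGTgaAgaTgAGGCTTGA
Tubb2b: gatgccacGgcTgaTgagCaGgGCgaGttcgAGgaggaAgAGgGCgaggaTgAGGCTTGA
Tubb3: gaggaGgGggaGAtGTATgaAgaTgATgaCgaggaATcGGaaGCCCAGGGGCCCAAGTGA
Tubb4a: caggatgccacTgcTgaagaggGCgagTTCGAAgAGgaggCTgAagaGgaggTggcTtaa
Tubb4b: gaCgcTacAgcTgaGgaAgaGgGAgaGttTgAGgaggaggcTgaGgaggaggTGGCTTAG
Tubb2a (chr13:34074274-34078007) and Tubb2b (chr13:34126748-34130466) lie on the minus strand, and Tubb3 (chr8:123411424-123422015), the isotype used as a neuronal marker, on the plus strand. Over the whole coding sequence the beta-tubulin genes other than Tubb5 matched it at 79.9% to 84.2% of positions.

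The promoters of the near-identical alpha-tubulin trio are shown because the 3 genes had unlike levels across the libraries. Each runs for 300 bases, 250 before the annotated start and 50 after it (RefSeq, GRCm38.p6), with capitals at CCAAT or GGGCGG on either strand. They lie at chr15:98953452-98953751 (minus), chr15:98934341-98934640 (minus) and chr15:99029641-99029940 (plus).
Tuba1a: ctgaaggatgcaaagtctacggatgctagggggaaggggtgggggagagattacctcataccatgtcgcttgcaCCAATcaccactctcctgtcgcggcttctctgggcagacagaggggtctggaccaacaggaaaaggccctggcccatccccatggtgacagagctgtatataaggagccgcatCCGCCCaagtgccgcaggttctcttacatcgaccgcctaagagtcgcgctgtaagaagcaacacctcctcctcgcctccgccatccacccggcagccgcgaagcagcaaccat
Tuba1b: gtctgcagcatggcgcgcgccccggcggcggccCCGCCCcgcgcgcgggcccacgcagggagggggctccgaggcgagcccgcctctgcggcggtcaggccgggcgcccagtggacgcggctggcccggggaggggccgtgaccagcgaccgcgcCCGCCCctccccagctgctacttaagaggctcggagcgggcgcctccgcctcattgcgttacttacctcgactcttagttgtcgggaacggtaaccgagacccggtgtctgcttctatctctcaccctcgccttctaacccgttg
Tuba1c: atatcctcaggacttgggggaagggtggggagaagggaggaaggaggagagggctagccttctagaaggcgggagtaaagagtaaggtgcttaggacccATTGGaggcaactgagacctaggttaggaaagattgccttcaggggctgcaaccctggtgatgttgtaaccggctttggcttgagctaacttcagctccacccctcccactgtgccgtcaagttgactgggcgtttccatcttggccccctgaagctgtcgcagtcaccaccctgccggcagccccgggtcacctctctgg
The Tuba1a promoter held 1 CCAAT and 1 GGGCGG match, the Tuba1b promoter 2 GGGCGG matches and the Tuba1c promoter 1 CCAAT match. CCAAT was in 37.4% and GGGCGG in 35.7% of all 32851 promoters of the table, and in 11 and 16 of the 28 promoters found for 24 of the members. A GGGCGG match can share guanines with a CCAAT match read on the other strand. A match is a run of letters and says nothing about binding. None of the 281 windows of 20 bases in any of these promoters occurred in either of the others, on the given strand.

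The libraries held 2147004 (R1 ESC label) to 5864673 (glia) expected counts, and the 37 genes took 3.05% of all TPM in neuron, 0.910% in glia, 1.10% to 1.52% in the brain regions, 0.184% in the library labelled R1 ESC and 0.775% and 0.852% in the MEF libraries. TPM divides counts by transcript length and then by the library's sum of such values. Marker genes set limits on the labels. The 6 neuronal markers were all at 10 TPM or more in neuron, with a sum of 1906 TPM, against 12.7 TPM in glia, where Rbfox3 and Nefl were at 0. Their sum was larger in the brain regions, at 5229 to 5706 TPM. Astrocyte markers summed to 408 TPM in neuron, with 3 of 6 at 10 TPM or more. The glia library held astrocyte markers (sum 2480 TPM, 6 of 6 at 10 TPM or more) and microglia markers (456 TPM, 5 of 6). It held hardly any oligodendrocyte markers (8.24 TPM). It also held much RNA of the smooth muscle list (8172 TPM), as did the ICR and OG2 MEF libraries (7718 and 9089 TPM). Of that list, Myh11 was at 1.59 TPM in glia. Dividing-cell markers summed to 844 TPM in glia, and to 444 and 443 TPM in the MEF libraries. In the library labelled R1 ESC, Pou5f1 had 20.2, Nanog 10.3 and Sox2 4.80 TPM, and Zfp42, Esrrb and Dppa5a were at 0. Of 6 epithelial markers 2 reached 10 TPM there, the keratin genes Krt14 at 142 and Krt8 at 36.9 TPM. The smooth muscle list summed to 382 TPM there and the fibroblast list to 133 TPM, with 2 of 6 fibroblast markers at 10 TPM or more. The library is therefore called here by its label only. Averaged over counts, the effective length of the genes was 2488 bases in neuron, 3409 in glia, 3730 to 3740 in the brain regions, 1739 in the library labelled R1 ESC, and 3136 and 3021 for the ICR and OG2 fibroblasts. What these differences contribute to the values below was not tested.

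**Figure D1:**
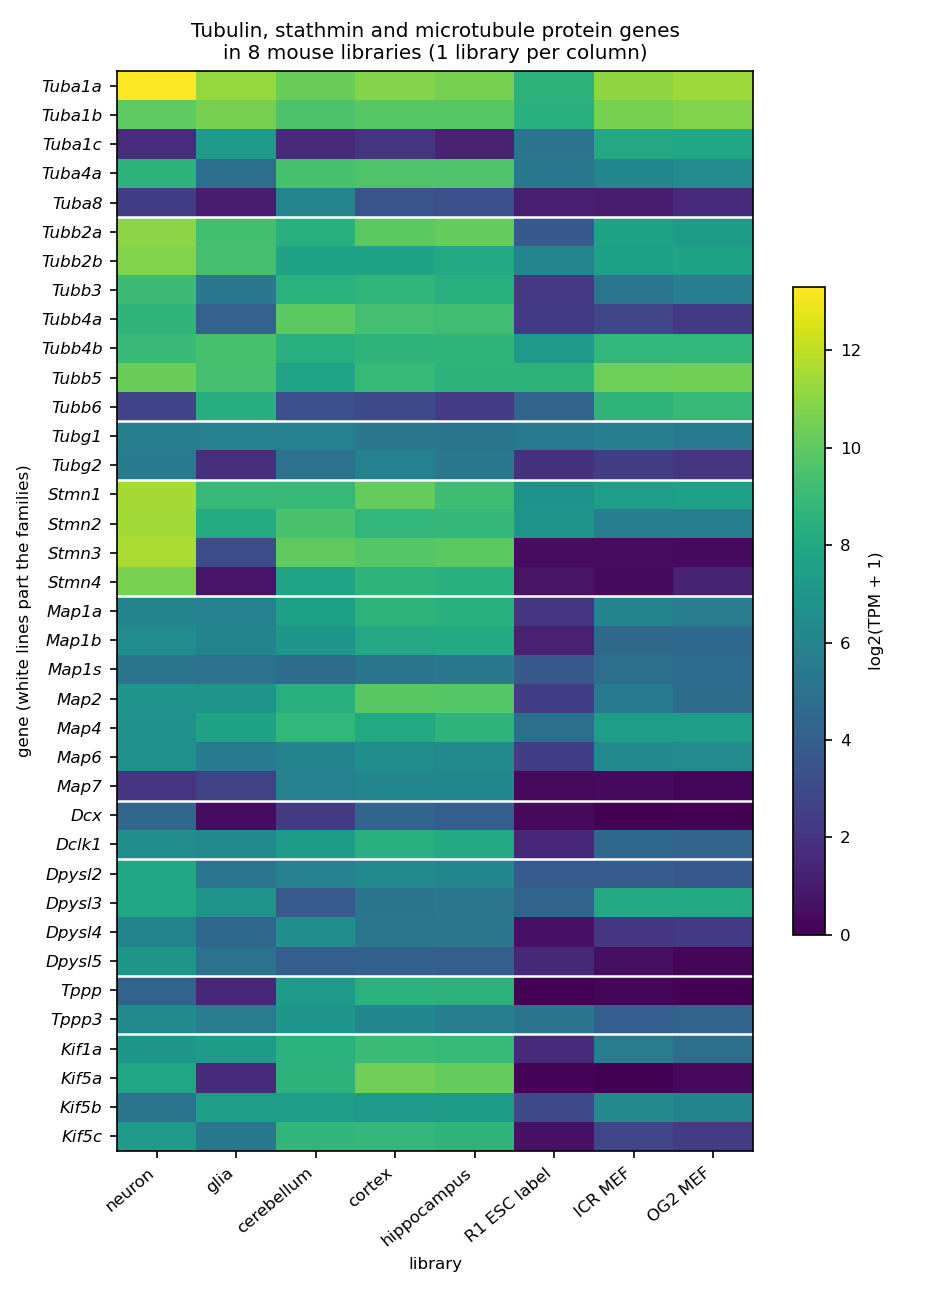
Level of the 37 genes (rows, by family) in the 8 libraries (columns, 1 library each) as log2(TPM + 1), from dark (0) to yellow. The brightest cell is Tuba1a in neuron at 10064 TPM, and Stmn4, Tppp and Kif5a are dark in glia, the library labelled R1 ESC and the MEF libraries.

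A call of higher or lower required 10 TPM or more in each library on the high side, and a gap of 4-fold or more on TPM + 1 between its lowest library and the top library of the low side. Folds are ratios of TPM between those nearest libraries, with exact (Clopper-Pearson) 95% intervals that cover counting error only. Neuron was set against glia and against the brain regions, the brain regions, glia and the library labelled R1 ESC against the MEF libraries, and brain regions and MEFs among themselves. These 8 comparisons share libraries and are not independent of each other. Only genes with 10 TPM or more in each library of a side could be called, while percentages of all genes are over all 29713. For neuron with glia, 35 of the 37 and 11185 of all genes could be called. For brain regions with MEFs the numbers were 35 and 10730, and for neuron with brain regions 34 and 10178.

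In neuron, all 4 stathmins, the isotypes Tuba1a, Tuba4a, Tubb3, Tubb4a and Tubg2, the growth and branching proteins Dcx, Dpysl2 and Dpysl5, Tppp and the neuronal kinesin Kif5a were higher than in glia, while Tuba1c, Tubb6 and Kif5b were lower. That made 14 of 37 higher, where 3.91% of all genes were, and 3 lower, where 11.5% of all genes were. The median difference of log2(TPM + 1) was 1.36 over the 37 genes (1.27 over the 34 whose mean reached 10 TPM) and -0.83 over all genes whose mean did.

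The brain regions differed from the MEF libraries by a wider set. 18 of 37 genes were higher in all 3 regions (6.14% of all genes), and Tuba1c, Tubb6 and Dpysl3 were lower (2.41% of all genes). The 18 included Tuba4a, Tubb3, Tubb4a, Tubg2, Stmn2, Stmn3, Stmn4, Tppp, Kif1a, Kif5a and Kif5c, and also the lattice-binding proteins Map1b, Map2 and Map7, with Dclk1, Dpysl2, Dpysl4 and Dpysl5. The median difference was 2.92 over the 37 genes (2.43 over the 35 whose mean reached 10 TPM) and 0.68 over all such genes. In bulk tissue, fewer cells of a type and less RNA per cell cannot be told apart.

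Neuron was higher than each brain region for 5 of 37 genes, namely Tuba1a, Tubb2b, Stmn2, Dpysl3 and Dpysl5 (0.676% of all genes), and lower for Map7, Tppp and Kif5b (6.58% of all genes). The median difference was 0.18 over the 37 genes (0.21 over the 35 whose mean reached 10 TPM) and -1.07 over all such genes.

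**Figure D2:**
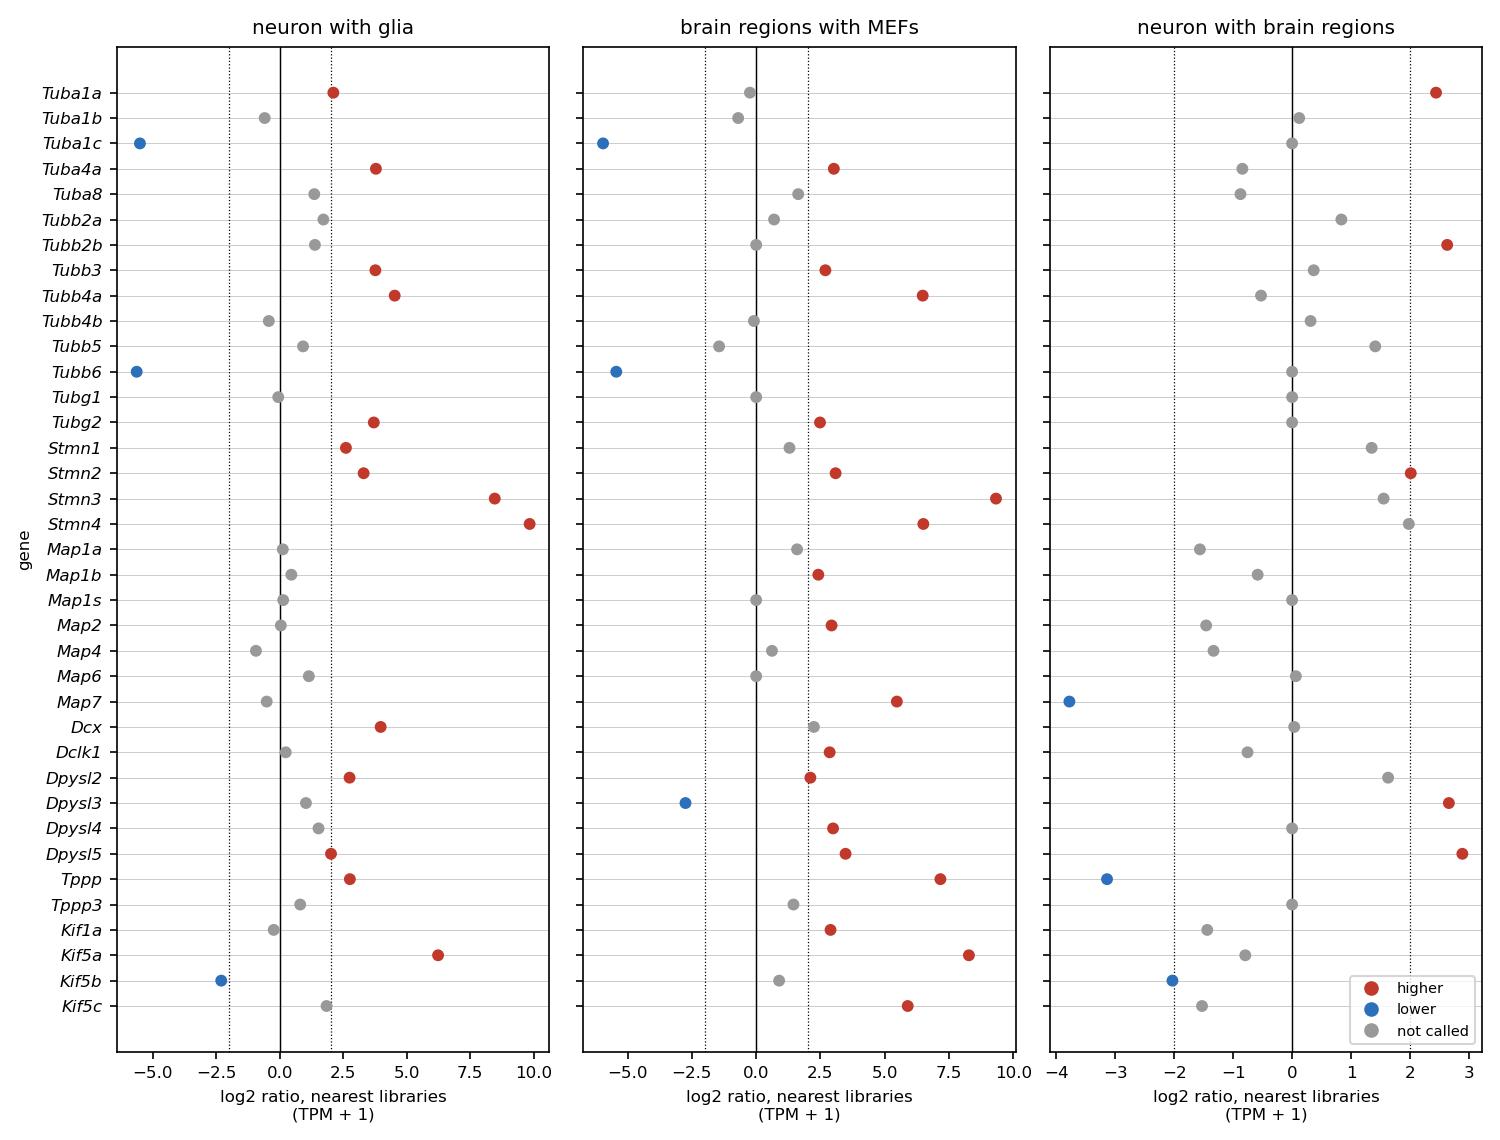
log2 ratio of TPM + 1 between the nearest libraries of the 2 sides (x, a separate scale in each panel) for the 37 genes (y), for neuron over glia, brain regions over MEFs and neuron over brain regions. Dotted lines mark 4-fold, red and blue points are genes called higher and lower, and a point at 0 means that the sides overlap. Stmn3 and Stmn4 lie farthest to the right in the neuron and glia panel, and Tuba1c and Tubb6 farthest to the left there and in the brain and MEF panel.

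Tuba1a, the main alpha-tubulin of young neurons, had 10064 TPM in neuron, 2328 in glia, 1265 in cerebellum, 1850 in cortex, 1512 in hippocampus, 379 in the library labelled R1 ESC, and 2190 and 2580 in the ICR and OG2 fibroblasts. The neuron library stood alone, while the brain regions lay below glia and both MEF libraries. The fold of neuron over glia was 4.32 (4.23 to 4.42), and that over cortex, the nearest brain region, 5.44 (5.30 to 5.59). Tuba1b, a broadly expressed isotype, had 1013 TPM in neuron, 1528 in glia, 776 to 932 in the brain regions, 351 in the library labelled R1 ESC, and 1515 and 1775 in the MEF libraries. It was called in none of the comparisons among these groups except that with the R1 ESC label. Tuba1c had 2.18 TPM in neuron and 143 in glia, a 65.7-fold difference (37.6 to 127). It had 1.5 to 3.03 TPM in the brain regions, against 255 and 249 in the MEF libraries.

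Reads that fit several of these 3 genes had to be divided by estimation. Of the distinct 50-base windows of their transcripts, 56.4% of Tuba1a, 59.2% of Tuba1b and 59.8% of Tuba1c also occurred in another gene on the same strand. The sum of the 3 was 11079 TPM in neuron and 3999 in glia, a log2 ratio of 1.47, and 2043 to 2785 TPM in the brain regions, a log2 ratio of 1.99 for neuron over the nearest. The sum, which includes the level of Tuba1b, was called in neither comparison. How the shared reads were assigned was not tested. Summing was chosen after the values were seen.

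Tuba4a, an isotype of mature neurons and muscle, had 386 TPM in neuron, 27.0 in glia, 694, 808 and 797 in cerebellum, cortex and hippocampus, 40.3 in the library labelled R1 ESC, and 68.9 and 84.6 in the MEF libraries. All 3 brain regions lay above neuron, and neuron above glia by 14.3-fold (11.5 to 17.9). The nearest brain region lay 8.20-fold above the nearest MEF library (7.24 to 9.32). Tuba4a overlaps Stk16 on the opposite strand with 34.6% of its windows, and its counts were not whole in any library. Without the strand setting, reads of these 2 genes cannot be told apart there. Tuba8 was the only gene of the 37 called between brain regions, at 66.4 TPM in cerebellum against 9.77 in cortex and 8.62 in hippocampus, 6.80-fold over cortex (4.98 to 9.47). Of all genes 0.888% were higher and 1.19% lower in cerebellum, against 1 and 0 of the 37. Of the Tuba8 windows 14.5% lie opposite the gene model Gm15856.

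Shares of the summed TPM of the 5 listed alpha-tubulin genes do not depend on how libraries are scaled to each other. Of that sum, Tuba1a made up 87.7% in neuron (87.5% to 88.0%) and 57.8% in glia. It made up 45.1% to 51.4% in the brain regions, 47.1% in the library labelled R1 ESC, and 54.3% and 55.0% in the MEF libraries. Tuba4a made up 3.37% in neuron, 22.4% to 24.8% in the brain regions, and 0.671% in glia. Tuba1c made up 0.0190% in neuron and 3.56% in glia, and less than 0.1% in each brain region against 6.33% and 5.31% in the MEF libraries.

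**Figure D3:**
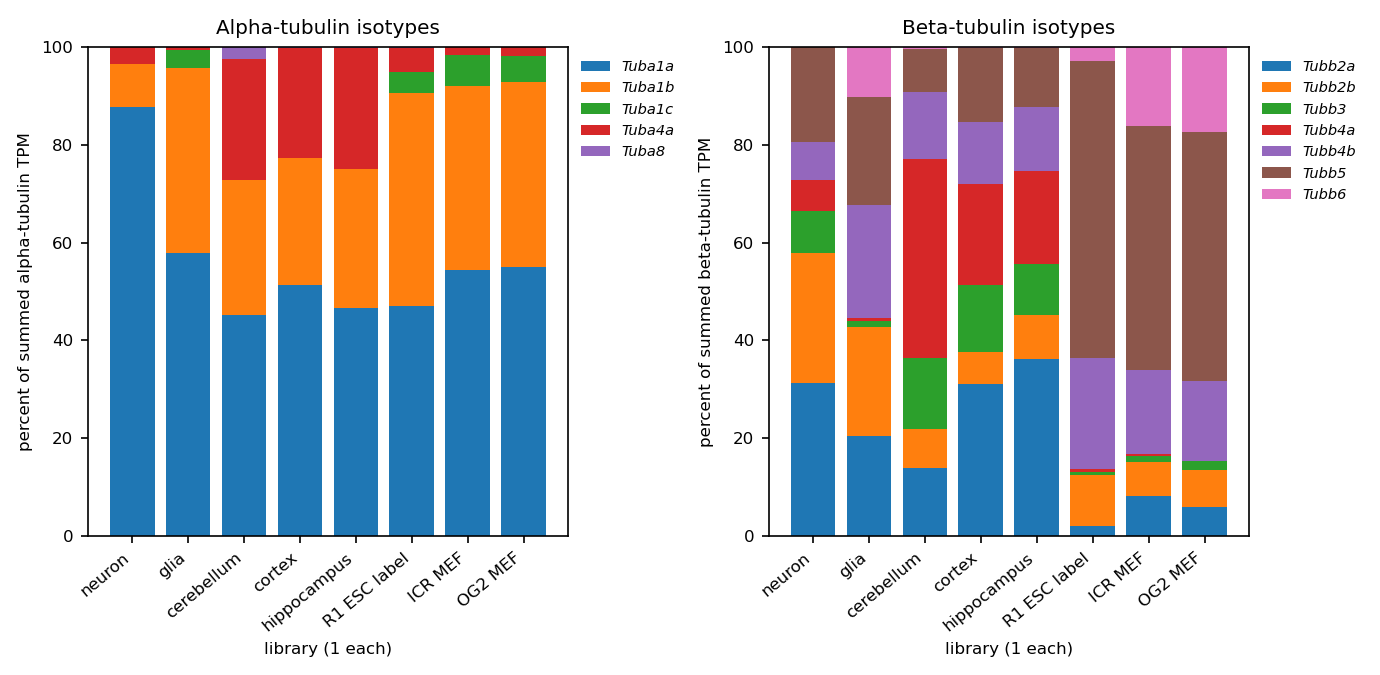
Share of each isotype in the summed TPM of the 5 alpha-tubulin genes (left) and the 7 beta-tubulin genes (right), in percent, for the 8 libraries (x, 1 each). Tuba1a takes 87.7% of the neuron bar, Tuba4a is visible mainly in the 3 brain regions, and Tubb5 takes 60.8% of the bar of the library labelled R1 ESC and 49.97% and 51.1% of the MEF bars.

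Among the beta-tubulins, Tubb3 and Tubb4a separated the neural libraries from glia and the MEFs, and Tubb6 did the reverse. Tubb3 had 552 TPM in neuron, 39.6 in glia, 358 in cerebellum, 428 in cortex, 331 in hippocampus, 3.62 in the library labelled R1 ESC, 35.7 in ICR MEF and 50.3 in OG2 MEF. Its level in glia lay between those of the MEF libraries. The folds were 13.9 (12.02 to 16.2) for neuron over glia and 6.57 (5.73 to 7.55) for hippocampus over OG2 MEF. Tubb4a, an isotype of neurons and of myelinating oligodendrocytes, had 418 TPM in neuron and 17.2 in glia, and 1002, 648 and 603 in cerebellum, cortex and hippocampus against 5.78 and 3.75 in the MEF libraries. It was higher in each brain region than in neuron, though by less than 4-fold. Oligodendrocyte markers summed to 25.7 TPM in neuron and to 4353 to 5772 TPM in the brain regions, and their part in this difference was not tested.

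Tubb6, a broadly expressed isotype that is scarce in neurons, had 5.28 TPM in neuron and 311 in glia, 58.8-fold lower (39.98 to 90.4). It had 4 to 8.66 TPM in the brain regions and 419 and 472 in the MEF libraries. Tubb2b, linked to the migration of young cortical neurons, had 1760 TPM in neuron, 673 in glia, 199, 204 and 283 in cerebellum, cortex and hippocampus, 66.2 in the library labelled R1 ESC, and 180 and 205 in the MEF libraries. The brain regions overlapped the MEF libraries, and neuron lay 6.22-fold over hippocampus (5.78 to 6.69). Tubb2a had 2048 TPM in neuron and 622 in glia, and 343, 975 and 1147 in cerebellum, cortex and hippocampus. Tubb2a and Tubb2b share 45.6% and 33.4% of their windows with each other. Their sum was 3808 TPM in neuron and 541 to 1430 in the brain regions, a log2 ratio of 1.41 that was not called.

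Which beta-tubulin led depended on the library. Tubb2a had the largest share in neuron (31.2%), cortex (31.1%) and hippocampus (36.2%), and Tubb4a in cerebellum (40.6%). Tubb4b had the largest share in glia (23.0%), with an interval (22.3% to 23.7%) that overlapped those of Tubb2b (21.5% to 22.9%) and Tubb5 (21.6% to 22.8%). Tubb5, the main isotype of dividing cells, led in the library labelled R1 ESC (60.8%) and in both MEF libraries (49.97% and 51.1%), and held 19.3% in neuron. Tubb6 took 10.2% in glia and 16.1% and 17.3% in the MEF libraries.

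Of the gamma-tubulins, Tubg1, which nucleates microtubules in all cells, ranged only from 35.2 to 56.5 TPM over the 8 libraries and was called nowhere. Tubg2, its brain-enriched copy, had 45.9 TPM in neuron, 2.60 in glia, 29.9 in cerebellum, 56.3 in cortex, 39.5 in hippocampus, 2.80 in the library labelled R1 ESC, 4.53 in ICR MEF and 3.28 in OG2 MEF. Neuron and the brain regions did not overlap the other 4 libraries. The folds were 17.6 (9.79 to 35.2) for neuron over glia and 6.60 (4.08 to 11.2) for cerebellum over ICR MEF, a call lost with 5 in place of 1 added to TPM and with the length trend removed. Tubg2 made up 47.2% of gamma-tubulin TPM in neuron and 4.64% in glia, and 34.6% to 60.3% in the brain regions. The 2 genes share 11.0% and 14.3% of their windows.

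Of the 37 genes, the stathmins Stmn3 and Stmn4 had the largest folds between neuron and glia. Stmn3 had 3137 TPM in neuron, 7.87 in glia, 1069 in cerebellum, 879 in cortex, 972 in hippocampus, 0.35 in the library labelled R1 ESC, 0.37 in ICR MEF and 0.32 in OG2 MEF. Stmn4 had 1558 TPM in neuron, 0.70 in glia, 215, 394 and 352 in cerebellum, cortex and hippocampus, 0.61 in the library labelled R1 ESC, and 0.32 and 1.38 in the MEF libraries. For both genes the order was neuron, brain regions, and far below them the other libraries, with Stmn3 in glia above the MEF libraries but under 10 TPM. Neuron lay over glia by 399-fold (261 to 644) for Stmn3 and by 2223-fold (615 to 18363) for Stmn4.

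Stmn1, the stathmin of dividing and of young cells, had 2887 TPM in neuron and 473 in glia, a 6.10-fold difference (5.74 to 6.50), while dividing-cell markers summed to 8.45 TPM in neuron and 844 TPM in glia. It had 477, 1132 and 565 TPM in cerebellum, cortex and hippocampus against 169 and 194 in the MEF libraries, and was not called there. Stmn2, also known as SCG10 and placed in growth cones, had 2852 TPM in neuron, 288 in glia, 705 in cerebellum, 442 in cortex, 462 in hippocampus, 118 in the library labelled R1 ESC, and 51.0 and 51.1 in the MEF libraries. Unlike Stmn3 and Stmn4, it was above 50 TPM in every library.

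The effective length of Stmn2 was 889 bases in neuron, 1757 in glia, 1893 to 1913 in the brain regions, 1285 in the library labelled R1 ESC, and 1909 and 1896 in the MEF libraries. Neuron lay 4.04-fold over cerebellum in TPM (3.88 to 4.21) but 3.38-fold in CPM, counts divided by the library total alone, so that call was lost without the length term. The call of neuron over glia was kept, at 9.91-fold in TPM (9.36 to 10.5) and 8.03-fold in CPM. Together the 4 stathmins summed to 10433 TPM in neuron and 769 in glia, and to 2350 to 2847 in the brain regions against 221 and 247 in the MEF libraries.

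**Figure D4:**
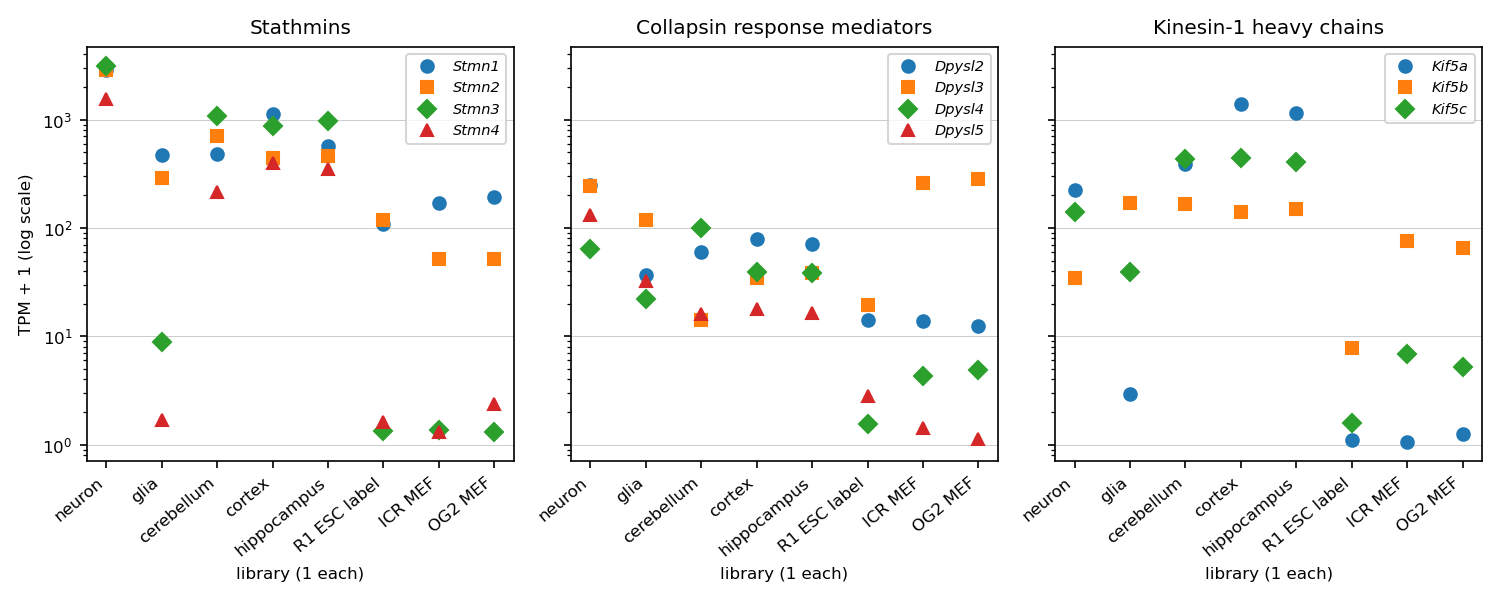
TPM + 1 (log scale) of the stathmins, the collapsin response mediators and the kinesin-1 heavy chains in the 8 libraries (x, 1 point per gene and library). In glia Stmn1 has 473 and Stmn2 288 TPM while Stmn4 is at 0.70, and Kif5b is the highest of its family in glia, the library labelled R1 ESC and the MEF libraries.

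The microtubule-associated proteins gave another pattern: Map1b, Map2 and Map7 were higher in brain regions than in MEFs, and 0 of the 7 were called between neuron and glia. Map2, which marks dendrites, had 122 TPM in neuron, 118 in glia, 337 in cerebellum, 953 in cortex, 895 in hippocampus, 4.62 in the library labelled R1 ESC, 43.2 in ICR MEF and 25.2 in OG2 MEF. Each brain region lay above neuron and glia. The fold of cerebellum over ICR MEF was 7.79 (7.10 to 8.56). Map1a, a partner of the mature lattice, had 62.5 TPM in neuron, 57.4 in glia, 187, 401 and 347 in cerebellum, cortex and hippocampus, 3.26 in the library labelled R1 ESC, and 61.3 and 48.1 in the MEF libraries.

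Map1b, an early protein of growing axons, had 86.1 TPM in neuron, 62.4 in glia, 130, 256 and 277 in cerebellum, cortex and hippocampus, and 23.5 and 22.6 in the MEF libraries. Cerebellum lay 5.52-fold over ICR MEF (5.11 to 5.98). Map6, which protects microtubules from cold, overlapped between brain regions (61.7 to 98.4 TPM) and MEFs (78.4 and 83.3 TPM), as did Map1s (25.1 to 38.5 TPM in the regions, and 27.0 and 24.3 TPM in the MEFs). Map4, the main such protein of non-neuronal cells, had 105 TPM in neuron and 202 in glia, and 266 to 443 in the brain regions against 173 and 168 in the MEFs, and 26.8% of its windows are shared with an unnamed gene model. Map7, which recruits kinesin-1, had 3.17 TPM in neuron, 4.95 in glia, 56.3, 67.1 and 73.2 in cerebellum, cortex and hippocampus, and 0.29 and 0.12 in the MEFs. It was 17.7-fold lower in neuron than in cerebellum (12.6 to 25.6).

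When the trend of the ratio with gene length over all genes was removed, the calls of Map1b, Map2, Dclk1 and Kif1a for brain regions over MEFs were lost, at log2 ratios of 1.03, 1.87, 1.56 and 1.68. Map1b and Map6 became higher in neuron than in glia, with log2 ratios of 2.33 in place of 0.46 and 2.10 in place of 1.15. Over all 37 genes 21 were then higher in neuron than in glia, and 18 in CPM, in place of 14.

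Dcx, the doublecortin gene of migrating young neurons, had 20.1 TPM in neuron and 0.34 in glia, 59.6-fold (27.2 to 163). Among the regions cerebellum had 3.74 TPM, cortex 19.6 and hippocampus 14.5, against 0 in both MEF libraries. Cerebellum was thus the lowest of the 3 regions and under the 10 TPM that a call needs. Dclk1, a doublecortin-like kinase, had 94.2 TPM in neuron, 79.8 in glia, 160, 332 and 269 in cerebellum, cortex and hippocampus, and 21.2 and 19.2 in the MEFs. Its order over the 8 libraries was the same as that of Map2 (Spearman rho of 1 over 8 libraries, a description that shares their depth and cell make-up).

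The collapsin response mediators, which couple guidance signals to tubulin, differed in the libraries that held them. Dpysl3 had 243 TPM in neuron, 118 in glia, 13.2, 33.4 and 37.6 in cerebellum, cortex and hippocampus, 18.5 in the library labelled R1 ESC, and 259 and 284 in the MEFs. Neuron and both MEF libraries were highest and cerebellum lowest. Dpysl3 was 6.87-fold lower in hippocampus than in ICR MEF (6.06 to 7.83) and 6.46-fold higher in neuron than in hippocampus (5.70 to 7.36). Dpysl3 made up 35.6% of the summed TPM of the 4 listed genes, Dpysl2 to Dpysl5, in neuron. That share was 7.08% to 23.4% in the brain regions, and 94.0% and 94.8% in the MEF libraries. Crmp1, also of this family but outside the 37 genes, was not in the sum. It had 534 TPM in neuron, 140 to 181 in the brain regions, and 5.01 and 5.51 in the MEF libraries.

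Dpysl5 had 130 TPM in neuron, 31.4 in glia, 14.9, 16.7 and 15.5 in cerebellum, cortex and hippocampus, 1.82 in the library labelled R1 ESC, and 0.43 and 0.12 in the MEFs. Glia lay above every brain region, and neuron 7.79-fold over cortex (6.71 to 9.10). Dpysl2, the best-known member and a tubulin dimer binder, had 246 TPM in neuron and 35.8 in glia, a 6.89-fold difference (6.23 to 7.63), and 58.8 to 79.0 in the brain regions against 12.9 and 11.5 in the MEFs. The call of Dpysl2 for brain regions over MEFs, 4.57-fold (3.82 to 5.48), was lost in CPM, with TMM factors, with 5 added to TPM and with the length trend removed. That of Dpysl4 was lost with the length trend removed (log2 ratio 1.99) and that of Dpysl5 with 5 added (1.88), as was the call of Dpysl5 for neuron over glia (1.89). Of the 4 listed genes, Dpysl4 led in cerebellum, with 99.0 TPM and 53.3% of their TPM, against 38.3 TPM in cortex and 37.5 in hippocampus. Crmp1, which is outside the list, had 140 TPM in cerebellum.

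Tppp, which bundles microtubules and is a major protein of oligodendrocytes, had 17.7 TPM in neuron, 1.76 in glia, 164, 360 and 369 in cerebellum, cortex and hippocampus, 0 in the library labelled R1 ESC, and 0.15 and 0.06 in the MEFs. The brain regions stood far above all other libraries. Neuron was 10.1-fold over glia (5.68 to 19.8) and 9.26-fold lower than cerebellum (8.14 to 10.6). The lower call was lost with the length trend removed, and that over glia with 5 added to TPM. Oligodendrocyte markers, like Tppp and Map7, were lower in neuron than in each brain region, with Mog at 0.99 TPM against 70.4 to 91.5 TPM. Among the regions, cerebellum had the largest sum of these markers (5772 TPM) but the least Tppp and Map7. The part of oligodendrocytes was not tested. Tppp3 varied less, with 82.5 TPM in neuron, 46.8 in glia, 49.7 to 125 in the brain regions, 33.9 in the library labelled R1 ESC, and 14.8 and 17.6 in the MEFs.

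The kinesin-1 heavy chains, motors that carry cargo toward the plus end of microtubules, differed in their spread over the libraries. Kif5a, the neuronal form, had 222 TPM in neuron, 1.96 in glia, 386 in cerebellum, 1380 in cortex, 1148 in hippocampus, 0.11 in the library labelled R1 ESC, 0.06 in ICR MEF and 0.25 in OG2 MEF. Neuron lay below every brain region and 113-fold over glia (81.0 to 164). Kif5b, the ubiquitous form, had 33.5 TPM in neuron, 169 in glia, 166, 140 and 150 in cerebellum, cortex and hippocampus, 6.87 in the library labelled R1 ESC, and 75.0 and 64.0 in the MEFs.

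Kif5b was 5.05-fold lower in neuron than in glia (4.62 to 5.52) and 4.18-fold lower than in cortex (3.81 to 4.59). Both calls were lost in CPM, at log2 ratios of -1.62 and -1.15, and with the length trend removed, at -0.61 and -0.07, and the second also with TMM factors or 5 added to TPM. Kif5c, the other neuronal form, had 140 TPM in neuron and 38.4 in glia, which was not called (log2 ratio 1.84) but was with TMM factors (2.05), CPM (2.55) or the length trend removed (3.72). It had 407 to 441 in the brain regions against 5.86 and 4.18 in the MEFs. Of the kinesin-1 TPM, Kif5b made up 8.47% in neuron and 80.8% in glia, and 7.15% to 16.9% in the brain regions against 92.7% and 93.5% in the MEFs. Kif1a, which carries synaptic vesicle precursors, had 132 TPM in neuron and 155 in glia, with 359 to 541 in the brain regions against 47.6 and 27.0 in the MEFs.

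Against the MEF libraries, glia was higher for 4 of 37 genes (10.8%), Stmn2, Dpysl4, Dpysl5 and Kif5c, where 3.6% of all genes were. It was lower for 0, where 1.05% of all genes were. Of the 37 genes 29 could be called, against 10436 of all genes, of which 1070 were higher. The median difference was 1.28 over the 37 genes (0.64 over the 27 whose mean reached 10 TPM) and 0.42 over all such genes. The folds over the nearest MEF library were 5.64 (4.99 to 6.39) for Stmn2, 5.49 (3.54 to 8.86) for Dpysl4, 72.6 (33.1 to 199) for Dpysl5 and 6.54 (5.16 to 8.38) for Kif5c. The Dpysl4 call was lost with 5 added to TPM, TMM factors, CPM, thinned counts or the length trend removed, that of Kif5c with 5 added or the trend removed, and that of Stmn2 with the trend removed. Markers of immature neurons in glia were Cd24a at 279 TPM, Sox4 at 66.7, Igfbpl1 at 22.8, Sox11 at 11.98 and Neurod1 at 0. The list sum was 380 TPM in glia, against 134 and 173 TPM in the MEF libraries. In neuron it was 158 TPM, lower than in glia. Markers of mature neurons were at 10 TPM or more in glia for Syp alone (10.1 TPM), and what either list contributes was not tested.

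Other genes of the pathway were taken from lists drawn up with earlier results of these data known. Between neuron and glia, of 16 mitotic kinesins and spindle proteins 15 were lower in neuron, where 11.5% of all genes were, with a list median of -4.27 against -0.83 over all genes. Ordered by the log2 ratio of TPM + 1, as all leading genes of these lists are, they were led by Kif11, the motor that pushes spindle poles apart, 252-fold lower (86.0 to 1226), with Prc1 and Kif23. Dividing-cell markers moved the same way, at 8.45 TPM in neuron and 844 TPM in glia. Of 18 other microtubule-associated and growth cone proteins 5 were higher, where 3.91% of all genes were. Among them were Crmp1 at 164-fold (111 to 254), the growth cone protein gene Gap43 at 95.4-fold (75.4 to 123) and tau (Mapt) at 57.2-fold (43.4 to 77.0). Nde1, a dynein regulator of dividing progenitors, was lower. Of 21 other transport motors 3 were higher, led by the dynein chain gene Dync1i1 at 160-fold (43.9 to 1325), and 4 lower, led by Kif1c. Of 19 end-binding and severing proteins Camsap3 was higher and 3 were lower, 2 of the 9 gamma-tubulin ring partners (Nedd1 and Cdk5rap2) were lower, and of 14 tubulin modifying enzymes the deglutamylase gene Agtpbp1 was higher. Of 8 folding factors Tbcel was lower. Outside the mitotic list the counts of lower genes were too small to set apart from the 11.5% of all genes. Apart from the mitotic list, the lists' medians for neuron over glia lay between -1.49 and 0.53.

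Between brain regions and MEFs 6.14% of all genes were higher and 2.41% lower, and their median was 0.68. Of the 18 other microtubule-associated and growth cone proteins 7 were higher, led by Mapt at 1109-fold (379 to 5385), Map7d2 and Map6d1. So were 8 of the 21 motors, led by Dync1i1, Kif21a and Kif17, and 6 of the 19 end-binding proteins, led by Camsap3, Clasp2 and Mapre3, of which list Fignl1 was lower. Of the 14 modifying enzymes Ttll7, Vash1 and Agtpbp1 were higher and Vash2 lower, and 10 of the 16 mitotic genes were lower. The folding factor gene Tbce was 4.60-fold higher (3.70 to 5.74). None of the 9 partners of the gamma-tubulin ring was called in either direction. In neuron against the brain regions, where 0.676% of all genes were higher and 6.58% lower, 0 of these listed genes were higher. Lower were 5 of the 21 motors, led by Kif13b, and 3 of the 14 modifying enzymes, led by Vash1. So were 2 of the 18 other microtubule-associated and growth cone proteins (Nde1 and Map6d1) and 2 of the 19 end-binding proteins (Ckap5 and Katnal1). Tubgcp5 of the 9 ring partners and Tbcel of the 8 folding factors were lower too. The list medians of the motors (-1.22) and the modifying enzymes (-1.07) lay near the -1.07 of all genes.

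In the library labelled R1 ESC, 15 of 37 genes were lower than in both MEF libraries, where 13.7% of all genes were, and 0 higher, where 1.38% were. Of the 37 genes 25 could be called, against 8461 of all genes, of which 4064 were lower. By TPM fold the largest differences were for Tubb6, with 18.3 TPM in that library against 419 and 472 in the MEFs, 22.9-fold lower (18.4 to 28.8), Map6, 17.6-fold lower (12.3 to 25.9), and Map1b, 17.0-fold lower (12.6 to 23.5). Stmn2 was on the other side, with 118 TPM against 51.0 and 51.1, under 4-fold. The median difference was -1.56 over the 37 genes (-2.60 over the 25 whose mean reached 10 TPM) and -1.99 over all such genes, so the genes at large were also lower in that library. With the length trend removed, Tubb2a and Tubb6 were the 2 of the 15 still called.

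Cortex and hippocampus differed by 0 of 37 genes in either direction (0.31% and 0.168% of all genes), and no member differed by more than 1.00 in log2(TPM + 1), the difference of Stmn1. ICR MEF and OG2 MEF also differed by 0 of 37 (0.128% and 0.0438% of all genes), with differences of at most 0.85 in log2(TPM + 1).

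**Figure D5:**
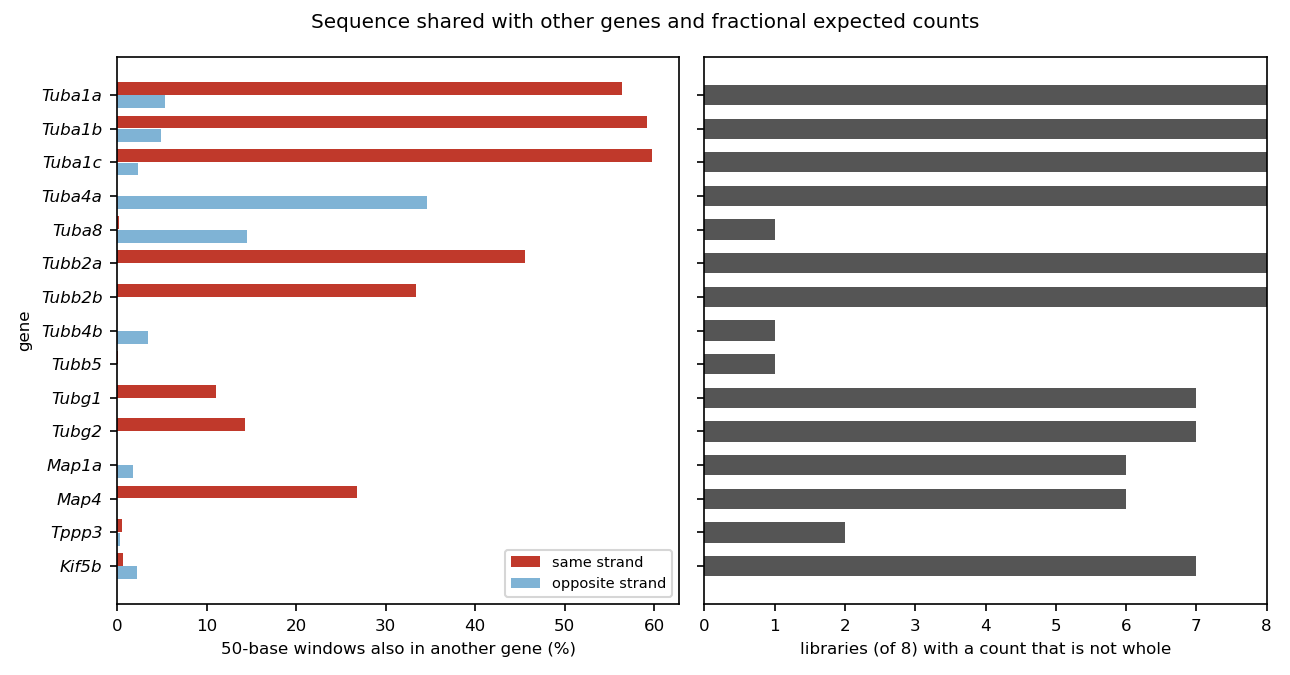
Left, the percent of the 50-base windows of a gene's transcripts that also occur in another gene, on the same strand (red) or the opposite strand (blue). Right, the number of the 8 libraries in which the gene's expected count was not whole, for the 15 genes with at least 1 such library. Tuba1a, Tuba1b, Tuba1c, Tuba4a, Tubb2a and Tubb2b had counts that were not whole in all 8.

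Expected counts that are not whole show where reads were divided between genes. By a distance of over 0.01 from a whole number, 15 of the 37 genes had such a count in at least 1 library, 40.5% against 29.7% of the 21662 genes with a count. The 4 stathmins, Tubb4a, Tubb6, Map2, Dcx, Kif5a and Kif5c were whole in all 8 libraries. Of the 146 transcripts of the members in the tables, 142 were found in GENCODE M21 for the window count.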

How the data were processed

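RNA was measured in 8 libraries, 1 per group. Per the labels' protocols, total RNA was extracted with Trizol and 1 ug of it was used for a TruSeq RNA library, and per the submitters' processing notes Bowtie, RSEM (no versions) and the build mm10 were used. For the annotation release and the strand setting, the sources used here give nothing. The authors deposited RSEM's expected counts for each gene, TPM values and effective gene lengths, per the file headers. Counts and lengths gave back 99.9% of the TPM values of 10 and above to within 1%.

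The members, comparisons and lists were chosen with earlier results of these data known. All 37 members are named, and of each other list at most the 3 with the largest ratio per direction. Calls needed 10 TPM and 4-fold on TPM + 1, libraries at 0 were given 3 counts, and intervals are exact (95%). Intervals treat reads as independent molecules and cover counting error only. At these depths 3 counts on a gene of 2000 bases were worth 0.461 to 0.943 TPM. No test was run, because each group held 1 library. The call rule was tested on simulated data.

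Alternatives were 0.1 or 5 added to TPM, a minimum of 1 TPM or none, TMM factors, CPM, removal of the length trend in 20 bins, thinning to 2147003 counts and leaving out each library where a side had several. Work was done in Python 3.11.15 (numpy 2.4.6, pandas 2.3.3, scipy 1.17.1, matplotlib 3.10.9), with edgeR 4.0.16 in R 4.3.3 for TMM factors alone. Sequences came from RefSeq (GRCm38.p6) and GENCODE M21. Some sequences are not reported here.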

Additional observations from a re-analysis of the deposited data

How the results depend on the processing

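Of the 66 calls of members over the 8 comparisons, 36 were kept under every one of the 8 settings that rescaled or refiltered the values, 30 were lost under at least 1 and 0 reversed. Removing the length trend lost 26, adding 5 to TPM 10, CPM 10, TMM factors 7 and thinning 1. With the length trend removed the members called were 11 in place of 18 higher in brain regions than MEFs, 9 in place of 5 higher and 1 in place of 3 lower in neuron than brain regions, 1 in place of 4 higher in glia than MEFs, and 2 in place of 0 higher and 2 in place of 15 lower in the R1 ESC label than MEFs. With CPM they were 9 higher in neuron than brain regions and 1 higher in the R1 ESC label, and with 5 added 2 higher in glia than MEFs. The causes were not tested beyond these settings. These scalings also moved the median of all genes, from TPM to length trend removed, to 0.02 in place of -0.83 for neuron with glia, -0.08 in place of 0.68 for brain regions with MEFs, 0.05 in place of -1.07 for neuron with brain regions, and -0.33 in place of -1.99 for the R1 ESC label.

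Leaving out a library can only add calls by construction. Without each library in turn, brain regions over MEFs ran from 18 to 21 higher and stayed at 3 lower, neuron over brain regions from 5 to 7 higher and from 3 to 6 lower (6 without cerebellum, adding Map1a, Map2 and Kif5a), cerebellum from 0 to 1 lower (Dcx, without hippocampus), and glia over MEFs from 4 to 7 higher (7 without ICR MEF, adding Map2, Dclk1 and Kif1a). No paired analysis was possible because each group held 1 library. Genes under about 1 TPM rest on few counts, and the depth does not show differences there.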
